A study of Mus musculus with 9 samples.

Results

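The genes described here encode the proteins of the cytosolic ribosome. They were taken by name, as the rows whose symbol is Rpl or Rps followed by a number and at most an a or x, together with Rplp0, Rplp1, Rplp2 and Rpsa. This gave 76 of the 19240 genes in the table, 30 of the small (40S) subunit and 46 of the large (60S) subunit. The table holds RNA-seq levels of 9 mouse libraries in 3 groups of 3, made to ask how the transcriptome changes when a single residue of S100A8, a calcium-binding protein abundant in neutrophils and monocytes, is mutated. OEA8_Ctrl is labelled an overexpression control, OEA8_67 carries a construct mutated at residue 67 and OEA8_69 a construct mutated at residue 69. Whether the control held unmutated S100A8 or an empty vector cannot be read from the labels. In the study's account, the constructs were delivered by lentivirus to mouse embryonic fibroblasts, which were then selected with puromycin, and the reference cells overexpressed S100A8. Strain, age and time after infection are not stated in the labels. The labels name hematopoietic stem cells. Whether the 3 libraries of a group were grown as separate cultures is not said. P-values below therefore cover the spread between libraries and no more, and this spread may be technical.

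Each ribosome joins a small subunit, which holds the mRNA and decodes it, to a large subunit, which forms the peptide bonds. The protein genes of both subunits are among the most active of a growing cell, and each subunit takes a single copy of nearly every protein, apart from the stalk proteins Rplp1 and Rplp2. Their mRNAs begin with a run of pyrimidines, the terminal oligopyrimidine tract, through which mTOR signalling sets how much of them is translated. RNA-seq of total RNA measures the amount of these mRNAs and not their translation.

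A run of pyrimidines near the start was frequent among these genes but not found in all, and the stretches below show where the longest run lies in members on which the results turn. Each line gives 70 bases of the coding strand (GRCm38.p6), with the longest run of C and T in capitals. It reaches from 40 before a transcript start listed by RefSeq to 30 from it on. Where RefSeq lists several starts of a gene, the start with the longest run in this stretch was taken. The listed start named below is the start taken. The first 4 are of genes called in a comparison, Rps26 and Rpl35 are abundant members, and Rps27 and Rpl38 are among the 3 members with the lowest signed log2 fold changes in OEA8_69 against OEA8_Ctrl.
Rpl13, chr8:123102310-123102379, plus strand: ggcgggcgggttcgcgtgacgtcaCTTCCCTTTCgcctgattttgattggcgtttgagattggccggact
Rpl10a, chr17:28328525-28328594, plus strand: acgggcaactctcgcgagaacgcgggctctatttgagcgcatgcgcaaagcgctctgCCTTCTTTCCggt
Rpl10, chrX:74270776-74270845, plus strand: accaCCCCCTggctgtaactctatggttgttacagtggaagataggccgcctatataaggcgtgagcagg
Rps18, chr17:33955636-33955705, minus strand: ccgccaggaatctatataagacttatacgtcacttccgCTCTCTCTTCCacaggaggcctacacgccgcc
Rps26, chr10:128626477-128626546, minus strand: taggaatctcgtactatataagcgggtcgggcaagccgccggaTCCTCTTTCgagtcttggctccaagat
Rpl35, chr2:39005102-39005171, minus strand: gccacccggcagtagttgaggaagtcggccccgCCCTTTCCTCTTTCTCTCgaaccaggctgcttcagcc
Rps27, chr3:90213619-90213688, minus strand: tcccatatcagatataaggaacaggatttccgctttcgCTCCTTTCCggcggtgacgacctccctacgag
Rpl38, chr11:114668540-114668609, plus strand: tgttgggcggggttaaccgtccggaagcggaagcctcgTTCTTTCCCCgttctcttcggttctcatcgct
In Rps18, Rps27 and Rpl38 the run begins 2 bases before the listed start, and in Rps26 it begins 3 bases after it. Rpl35 has the longest run of these, with 18 bases. Rpl10 has no such run at the listed start, and its longest has 6 bases and lies upstream. The longest run of Rpl13 begins 16 bases before the listed start and ends upstream of it, and that of Rpl10a begins 17 bases after it. Of the 4 called genes shown, Rps18 was thus the one with its longest run at the listed start.

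RefSeq promoters, from 250 bases before to 50 after the start, were found for 56 of the 76 genes, with 66 starts. Between 20 bases before and 50 after the start, a run of at least 8 pyrimidines occurred in 45 of the 56 genes (80.4%) and in 27.0% of the 9590 other tested genes with a promoter, with median longest runs of 10.5 and 6 bases. The motif CTCTTTC or its reverse GAAAGAG was present in the promoters of 17 genes (30.4%), compared with 9.28% of all genes with a promoter. On the coding strand within that window near the start, CTCTTTC occurred in 12 members (21.4%) and in 0.991% of the other tested genes. CCGGAAG or CTTCCGG, the core bound by ETS factors, occurred in 23 (41.1%) and in 9.93% of all genes, and AAGATGG or CCATCTT, the core of the YY1 motif, in 9 (16.1%) and 7.28%. These are matches of letters and not shown to be sites. Among the tested genes alone, CCGGAAG was more frequent, at 20.5%.

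The 76 genes lay on 19 chromosomes. Chromosome 7 held 14 of them, and the X chromosome 4. Their coding sequences were short, with a median of 462 bases and a range from 138 to 1257. Many have processed copies elsewhere in the genome. Divided into words of 50 bases, 62 of the 76 coding sequences shared at least 50% of their words with another annotated gene, and 8 with another gene of the same table. A read from such a stretch can be assigned to either copy, and the values of these genes are uncertain to that extent.

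Ribosomal protein mRNAs were highly abundant in all libraries. FPKM divide the fragments of a gene by its transcript length and by the library's mapped fragments, so levels can be compared between genes. The median level over the 76 genes was 885 FPKM. Of the 100 genes with the highest means in the table, 48 were ribosomal protein genes. Rps26, whose protein lines the mRNA exit channel of the small subunit, was the highest at 3009 ± 300 FPKM (SD, n = 9), followed by Rps2 at 2779 ± 205 FPKM and by the stalk protein gene Rplp1 at 2429 FPKM. At 1000 FPKM or more stood 30 genes, between 200 and 1000 FPKM 41, and the remaining 5 were below 130 FPKM. Since the ribosome takes equal numbers of most of these proteins, the low end was examined for copies.

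The 3 lowest members were Rps15a at 61.4 FPKM, Rps6 at 17.3 FPKM and Rpl34 at 15.4 FPKM. Rps6, the substrate of S6 kinase downstream of mTOR, shares 100% of its coding words with Rps6-ps4, a processed copy that the table lists at 1289 FPKM. Of the sum of both, the gene itself held 1.32%. Likewise Rpl34 held 1.85% of its sum with Rpl34-ps1 (816 FPKM, 71.7% of words shared). Rpl37 held 38.8% of its sum with Rpl37rt, Rpl31 held 71.6% with Rpl31-ps12, and Rps27 held 90.6% with Rps27rt. Sums with these copies are therefore given beside the single values where these genes are described. For Rpl37 the log2 fold change in OEA8_69 against OEA8_Ctrl was 0.04 alone (limma adjusted p = 0.740) and 0.23 summed (adjusted p = 0.0631). Without replicate 3 of OEA8_Ctrl the sum was called in OEA8_69 (0.31, adjusted p = 0.00148) and in OEA8_67 (0.18, adjusted p = 0.0395). Rpl37 alone was not called there. For Rpl31 the values with all libraries were 0.13 alone and 0.16 summed, neither called.

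All 76 genes passed the filter of a mean of at least 0.5 FPKM and were tested with the 12012 genes that did. On average they varied between libraries of a group by a coefficient of variation with a median of 6.06%. It was 4.35% over the 675 other tested genes that averaged at least 100 FPKM. Rplp0, the protein at the base of the stalk and a common reference gene in PCR, had the smallest at 2.53%. Rpl36 had the highest at 17.2%.

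Summed over the 76 genes, the level was 69820, 70462 and 80969 FPKM in the 3 libraries of OEA8_Ctrl, 70984, 72833 and 75770 in OEA8_67 and 80334, 83376 and 78693 in OEA8_69. Thus replicate 3 of OEA8_Ctrl lay among the libraries of OEA8_69, and the other libraries of OEA8_Ctrl lay below all libraries of OEA8_67. As shares of the FPKM of all genes these are 14.8, 14.9 and 16.2% in OEA8_Ctrl, 15.1, 15.5 and 15.9% in OEA8_67, and 16.6, 16.9 and 16.3% in OEA8_69. By share the 3 libraries of OEA8_69 were above all others, and the ranges of the other groups overlapped. The mean shares were 15.3 ± 0.730%, 15.5 ± 0.382% and 16.6 ± 0.294% (SD, n = 3). Small and large subunit genes moved together, for the ratio of their sums stayed between 0.651 and 0.665 in the 9 libraries.

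**Figure D1:**
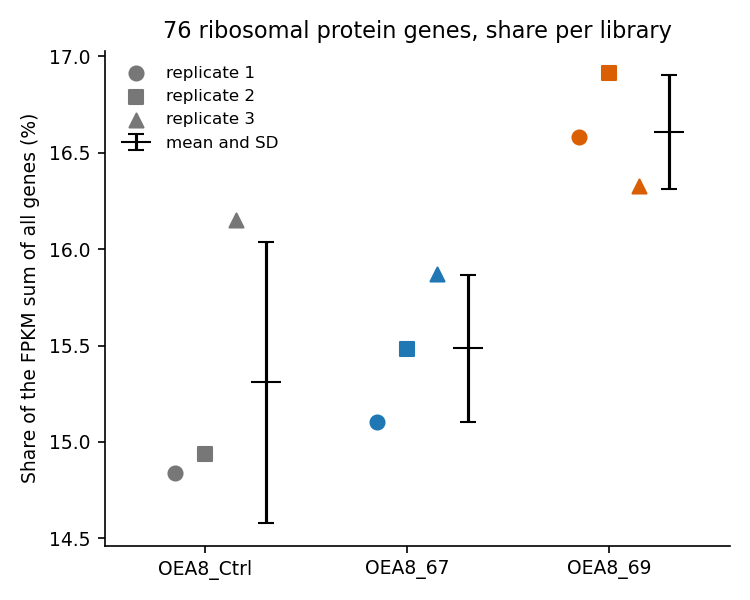
Share of the FPKM sum of all genes held by the 76 ribosomal protein genes, in percent, for each library of the 3 groups (symbols), with the mean and SD of the group. OEA8_69 lies between 16.3 and 16.9%, and replicate 3 of OEA8_Ctrl, at 16.2%, stands above its group's other libraries at 14.8 and 14.9%.

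Replicate 3 of OEA8_Ctrl was the highest of the control libraries for 75 of the 76 genes, and its sum was 1.15 times the mean of replicates 1 and 2. The mean sum of OEA8_69 was 1.10 times that of OEA8_Ctrl with all libraries and 1.15 times that of replicates 1 and 2 alone. For OEA8_67 it was 0.992 times that of OEA8_Ctrl. Over the single genes, replicate 2 of OEA8_69 was the highest of the 9 libraries for 47 genes and replicate 3 of OEA8_Ctrl for 18. The lowest was replicate 1 of OEA8_Ctrl for 35 genes, replicate 2 of OEA8_Ctrl for 17 and replicate 1 of OEA8_67 for 14. The comparisons with the control were also made without its replicate 3, and the values are given where the call of a named ribosomal protein gene turned on it.

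Transcript length moved with this library. The 76 genes had a median transcript length of 704 bases, against 2176 bases over the tested genes. Among 1057 other genes of up to 800 bases with a mean of at least 5 FPKM, the median deviation from the gene's own mean was 0.07 on the log2 scale in replicate 3 of OEA8_Ctrl and between -0.03 and 0.03 in the remaining libraries. Over 1440 genes longer than 4000 bases it was -0.11 in that library, between 0.03 and 0.04 in OEA8_67, and 0.00, -0.04 and -0.00 in replicates 1, 2 and 3 of OEA8_69. Replicate 2 of OEA8_69, the highest library for 47 members, thus also had higher short and lower long genes, by smaller amounts. Ribosomal protein genes deviated by 0.10 in replicate 3 of OEA8_Ctrl and by 0.08, 0.14 and 0.06 in OEA8_69, where the short genes deviated by 0.01, 0.03 and 0.00. In each library of OEA8_69 and in replicate 3 of OEA8_Ctrl these genes thus lay above the other short genes. In replicates 1 and 2 of OEA8_Ctrl and 1 and 2 of OEA8_67 they lay below them. There the ribosomal protein genes deviated by -0.11, -0.08, -0.09 and -0.07, and the other short genes by -0.03, -0.02, -0.02 and -0.03. The part of transcript length in the differences was not tested.

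**Figure D2:**
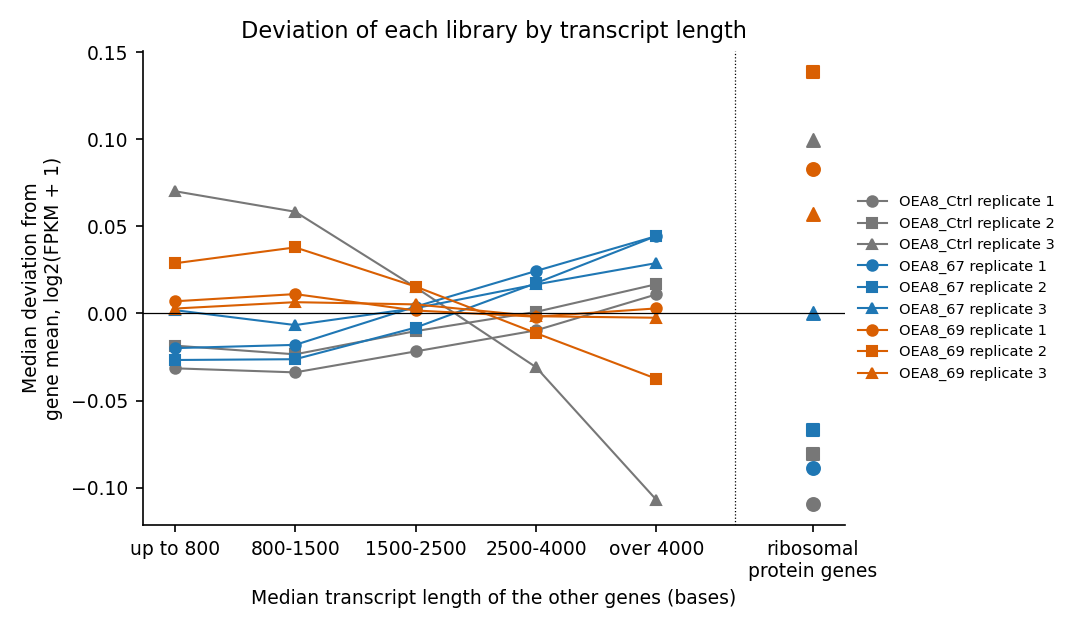
Median deviation of genes from their own mean over the 9 libraries, in log2(FPKM + 1), by the median transcript length of the gene in bases (5 bins, ribosomal protein genes left out), with the ribosomal protein genes at the right. Replicate 3 of OEA8_Ctrl falls from 0.07 at the shortest to -0.11 at the longest genes, and the 3 libraries of OEA8_69 lie at 0.06 to 0.14 for the ribosomal protein genes.

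In OEA8_69 compared with OEA8_Ctrl, ribosomal protein genes were higher by small amounts. Of the 76, 6 rose at an adjusted p under 0.05 and 0 fell, 7.89% against a background of 4.55% of all tested genes called higher (5.24% lower). The mean was higher for 74 genes, against 57.7% of all tested genes. The median log2 fold change was 0.13, with values from -0.07 to 0.38, beside 0.02 over all tested genes. It was 0.13 for the small and 0.12 for the large subunit. At an unadjusted p under 0.05 there were 30 genes, all higher (backgrounds 13.9% higher and 11.2% lower). The 3 libraries of OEA8_69 lay above the 3 of OEA8_Ctrl for 18 genes, or 23.7%, and below them for 0, where the backgrounds were 15.4% and 12%.

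These counts depended on single libraries. Without replicate 3 of OEA8_Ctrl, 52 genes were called higher, the 6 included, against 7.92% of all tested genes, and the median was 0.19. The libraries then did not overlap for 65 genes, with a background of 26.3%. Leaving out any other library gave 1 or 2 calls, with the median between 0.08 and 0.15. A model of these 2 groups alone called 1 gene. In all 9 of these fits the median of the 76 genes was above 0.

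The large subunit genes that rose were Rpl13, Rpl10a and Rpl3. Rpl13 was measured at 1285, 1302 and 1443 FPKM in OEA8_Ctrl, at 1392, 1426 and 1411 in OEA8_67 and at 1579, 1652 and 1617 in OEA8_69. All libraries of OEA8_69 were above all others. Its log2 fold change was 0.27 ± 0.06 (SE, limma adjusted p = 0.00946), and it was the gene whose call held with any of the 9 libraries left out (highest adjusted p = 0.0438). Rpl10a, which belongs to the mobile L1 stalk, was measured at 750.1, 789.8 and 890.2 FPKM in OEA8_Ctrl, 817, 832 and 854.5 in OEA8_67 and 935, 971 and 934 in OEA8_69. Here too the groups OEA8_69 and OEA8_Ctrl did not overlap, though replicate 3 of the control came near (0.23 ± 0.06, adjusted p = 0.0345). Rpl3, whose protein reaches to the peptidyl transferase centre, was 886, 889 and 939 FPKM in OEA8_Ctrl, 901, 891 and 923 in OEA8_67 and 1035, 1019.8 and 981 in OEA8_69. It rose by 0.16 ± 0.05 (adjusted p = 0.0499), with no overlap. The calls of Rpl10a and Rpl3 were lost with any library other than replicate 3 of OEA8_Ctrl left out, with adjusted p up to 0.126 and 0.187.

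In the small subunit, Rps20 and Rps18 were among the genes that rose, and both encode proteins of the subunit's head. Rps20 was 104, 116 and 117 FPKM in OEA8_Ctrl, 108, 112 and 116 in OEA8_67 and 127, 129 and 127 in OEA8_69. OEA8_69 was thus above both other groups, which overlapped (0.18 ± 0.05, adjusted p = 0.0385). Rps18 was 1339, 1381 and 1485 FPKM in OEA8_Ctrl, 1469.9, 1499 and 1528 in OEA8_67 and 1582, 1654 and 1571 in OEA8_69. Every library of OEA8_69 was above all others, and OEA8_67 overlapped the control (0.19 ± 0.05 in OEA8_69 against OEA8_Ctrl, adjusted p = 0.0422). Of the 9 fits with a library left out, Rps20 was called in 3 and Rps18 in 1, the fit without replicate 3 of OEA8_Ctrl among them.

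**Figure D3:**
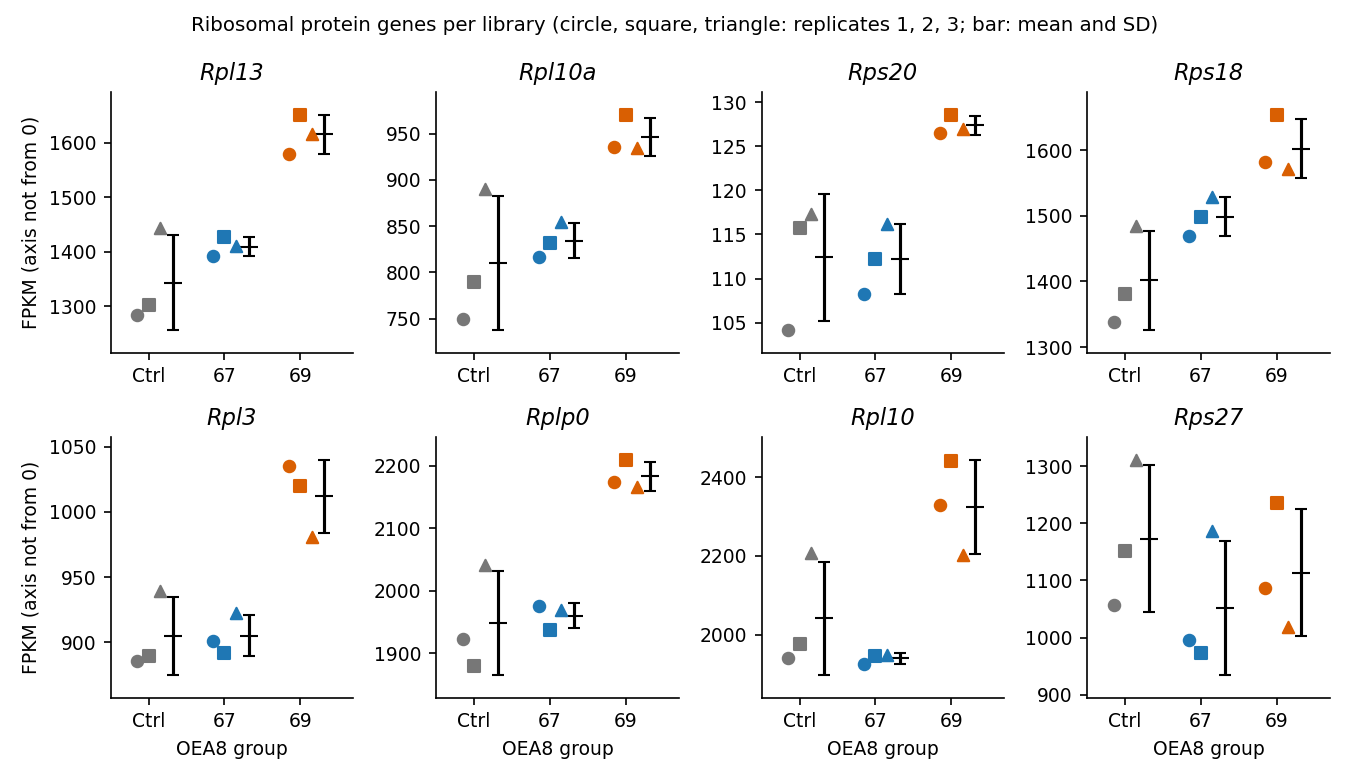
FPKM per library of 5 genes called in OEA8_69 against OEA8_Ctrl (Rpl13, Rpl10a, Rps20, Rps18 and Rpl3), and of Rplp0, Rpl10 and Rps27, with the mean and SD of each group (n = 3); the axes do not start at 0. For the 5 called genes and Rplp0 every library of OEA8_69 is above every control library, for Rpl10 replicate 3 of OEA8_69 and replicate 3 of OEA8_Ctrl almost coincide, and for Rps27 the groups overlap.

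Among genes not called, the largest estimate in OEA8_69 was that of Rpl34, at 12.9, 10.7 and 15.2 FPKM in OEA8_Ctrl and 14.8, 16.4 and 20.04 in OEA8_69 (0.38 ± 0.11, adjusted p = 0.0601). The groups overlapped, and summed with Rpl34-ps1 the estimate was 0.08 (adjusted p = 0.560). When replicate 3 of OEA8_Ctrl was left out, Rpl34 was called (0.49, adjusted p = 0.0139) and its sum with the copy was not (0.15, adjusted p = 0.197). Rps10, of the small subunit, was estimated at 0.26 ± 0.08 (adjusted p = 0.0632), and at 0.36 without replicate 3 of OEA8_Ctrl, where it was called (adjusted p = 0.00244). At the other end stood Rps27, Rpl17 and Rpl38. Rps27 was 1058, 1151 and 1311 FPKM in OEA8_Ctrl and 1087, 1236 and 1018 in OEA8_69 (-0.07 ± 0.10, adjusted p = 0.698), and 0.02 when summed with Rps27rt. Rpl17, which lines the peptide exit tunnel, had -0.03 ± 0.08 (adjusted p = 0.873). Rpl38, the gene mutated in the tail-short mouse, was 898, 934 and 1145 FPKM in OEA8_Ctrl and 1002, 1119 and 872 in OEA8_69 (0.01 ± 0.10, adjusted p = 0.973). Without replicate 3 of OEA8_Ctrl the estimates of Rps27 and Rpl17 turned to 0.01 and 0.07, and without replicate 1 that of Rpl38 turned to -0.06.

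**Figure D4:**
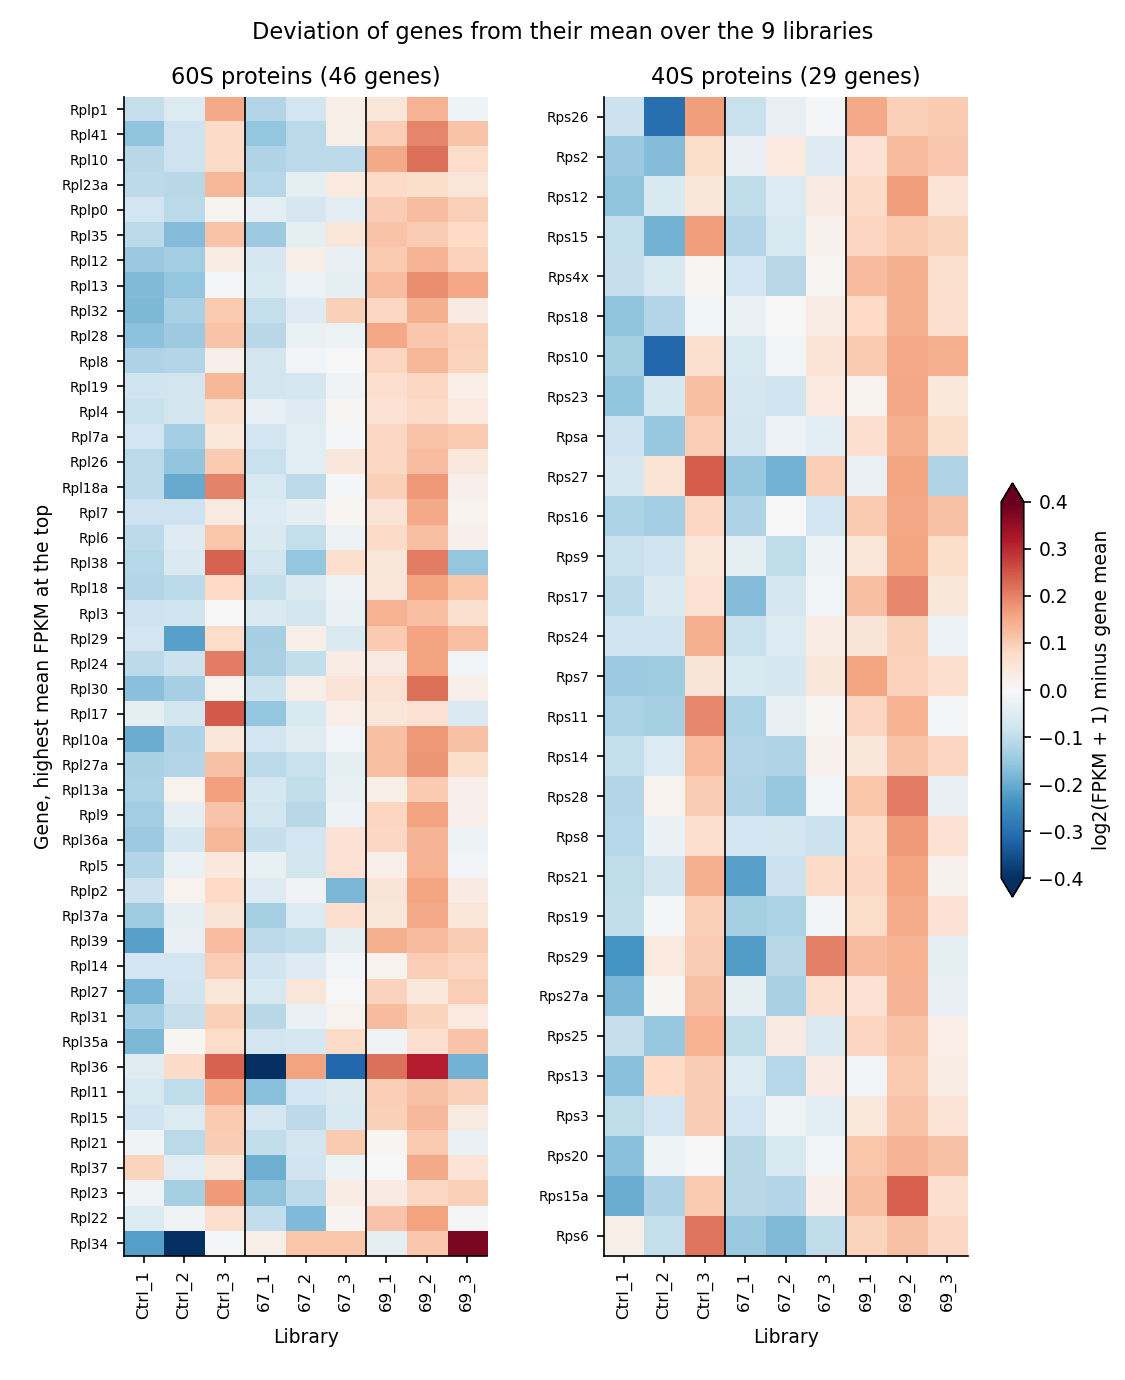
Deviation of ribosomal protein genes from their own mean over the 9 libraries, in log2(FPKM + 1), for 46 genes of the 60S and 29 of the 40S subunit (rows, by level) and the 9 libraries (columns, named by group and replicate). Columns of OEA8_69 and replicate 3 of OEA8_Ctrl are mostly red (above the mean), those of replicates 1 and 2 of OEA8_Ctrl and 1 and 2 of OEA8_67 mostly blue, and Rpl36 and Rpl34 stand apart from the other genes.

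In OEA8_67 compared with OEA8_Ctrl no ribosomal protein gene passed the limma test. With 0 of 76 called higher and 0 lower, the backgrounds were 3.21% and 4.66% of all tested genes. At an unadjusted p under 0.05 there were 3, of which 1 was higher (backgrounds 13.6% higher and 11.1% lower). The median log2 fold change was -0.01 with a range from -0.29 to 0.31, beside 0.02 over all genes, and 30 of the 76 means were higher, against 56% of all tested genes. This median was above 0 under quantile normalization and when libraries were scaled to the same sum, at 0.02 and 0.01. For 2 genes the groups were apart in all libraries, Rpl34, which was higher (background 16.5%), and Rps6, which was lower (background 11.7%). Here again replicate 3 of the control mattered. Without it the median was 0.05, 2 genes were called higher (Rps10 and Rpl34), a share below the 3.5% of all tested genes, and the sum of Rpl34 with its copy was at 0.00 (adjusted p = 0.991). In that fit 26 were higher without overlap (background 24.2%). Without replicate 1 of OEA8_Ctrl the median was -0.06, and 10 genes were lower without overlap (background 15.9%). Leaving out replicate 3 of OEA8_67 gave 7 such genes (background 14.9%).

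Rps6 was 17.5, 16.05 and 20.1 FPKM in OEA8_Ctrl, 15.4, 15.1 and 16.0 in OEA8_67 and 18.4, 18.75 and 18.3 in OEA8_69. OEA8_67 was below both other groups (-0.19 ± 0.07 against OEA8_Ctrl, adjusted p = 0.108). Without replicate 2 of the control this difference passed the test at -0.26 (adjusted p = 0.0251). The sum with Rps6-ps4 gave -0.01 (adjusted p = 0.957), so the estimate was not seen in the copy that holds nearly all of the signal. Rpl34 in OEA8_67 was 15.5, 16.5 and 16.5 FPKM (0.31 ± 0.11, adjusted p = 0.119), and -0.06 when summed with its copy. Rpl36 scattered within the groups, with 336, 516 and 371 in OEA8_67 and 446, 487 and 544 FPKM in OEA8_Ctrl (-0.29 ± 0.15, adjusted p = 0.267).

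The 2 mutants were then compared with each other, a comparison in which the levels of the control do not enter, although its libraries contribute to the estimate of the spread. All 76 genes had a higher mean in OEA8_69, where 49.2% of all tested genes did. Of the 76, 1 was called higher and 0 lower, against backgrounds of 1.89% and 1.27%. The median log2 fold change was 0.14, with a range from 0.05 to 0.32, beside -0.00 over all genes. Unadjusted, 33 genes had a p under 0.05, all higher (backgrounds 9.97% higher and 8.74% lower). The libraries of OEA8_69 lay above those of OEA8_67 for 50 genes, or 65.8%, and below them for 0, with backgrounds of 14.7% and 16.9%, and the count was 50 to 70 with any library left out. Under quantile normalization 66 of the 76 means were higher, and the median log2 fold change was 0.05 in place of 0.14.

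Rpl10, whose protein joins the large subunit late in its assembly, in the cytoplasm, was the called gene. It was 1940.4, 1978 and 2207 FPKM in OEA8_Ctrl, 1925, 1947 and 1948 in OEA8_67 and 2329, 2442 and 2203 in OEA8_69. The libraries of OEA8_67 were tightly grouped and below all of OEA8_69, and the control overlapped OEA8_69. Its difference was 0.26 ± 0.06 (adjusted p = 0.0491). The call was lost with any library left out except replicate 3 of OEA8_Ctrl, with adjusted p up to 0.172 and estimates between 0.22 and 0.30. Without replicate 3 of OEA8_Ctrl 28 genes were called, against 4.92% of all tested genes, and a model of the mutants alone called 25, against 4.61%. With any other library left out 0 or 1 were called. The largest estimate was that of Rpl36 (0.32 ± 0.15, adjusted p = 0.292), and that of Rps6 was 0.24 ± 0.07 (adjusted p = 0.0786) or 0.14 when summed with its copy. The smallest were those of Rpl21 at 0.05, Rpl5 at 0.06 and Rpl34 at 0.07, but summed with its copy Rpl34 was at 0.14 (adjusted p = 0.334).

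**Figure D5:**
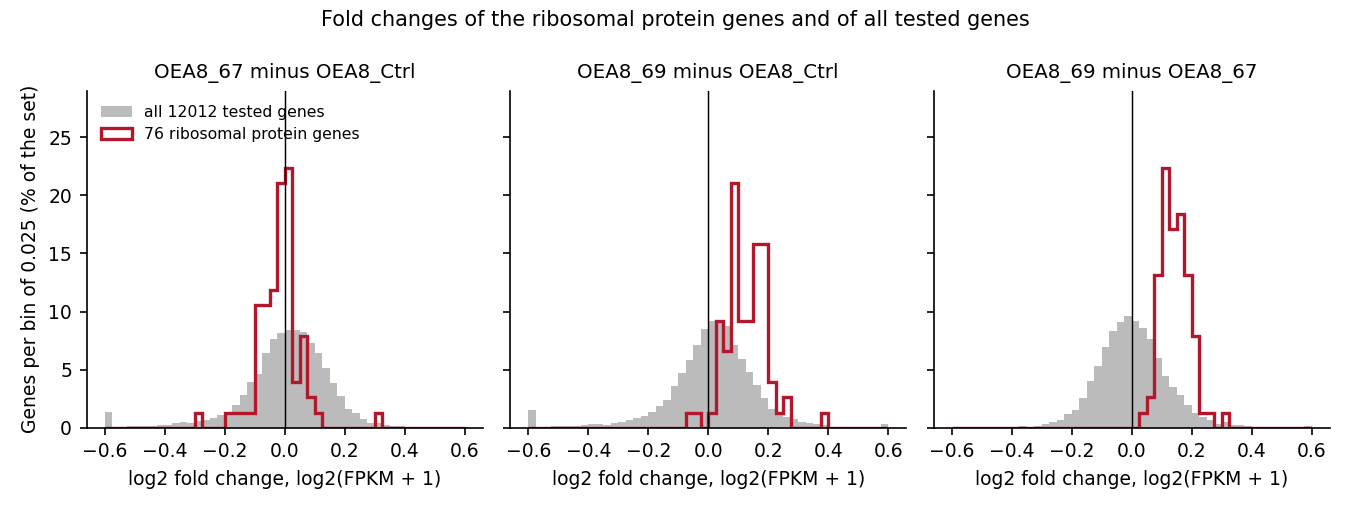
Distribution of log2 fold changes in the 3 comparisons for the 76 ribosomal protein genes (red line) and all 12012 tested genes (grey), in percent of the set per bin of 0.025 on the log2(FPKM + 1) scale; values beyond the axis are drawn in its outermost bins. The red distribution is centred at -0.01 in OEA8_67 minus OEA8_Ctrl, at 0.13 in OEA8_69 minus OEA8_Ctrl and at 0.14 in OEA8_69 minus OEA8_67.

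The F test over the 3 groups called Rpl13, Rps20 and Rpl10 of the 76, 3.95%, with a background of 12.1% of all tested genes. Without replicate 3 of OEA8_Ctrl it called 51, against 18% of all tested genes, and without any single library of either mutant at most 1.

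Other members known for particular roles had their highest mean in OEA8_69, and none of those named next passed the limma test in any comparison with all libraries. When replicate 3 of OEA8_Ctrl was left out, 5 of them were called in OEA8_69 against OEA8_Ctrl, as given below. Rplp0 was 1923, 1880.1 and 2041 FPKM in OEA8_Ctrl, 1975, 1937 and 1969 in OEA8_67 and 2173, 2209 and 2166 in OEA8_69. Every library of OEA8_69 was higher than the rest, yet the difference from the control did not pass with all libraries (0.17 ± 0.05, adjusted p = 0.0680) and passed without replicate 3 of OEA8_Ctrl (0.20, adjusted p = 0.00521). Of the other stalk proteins, Rplp1 was estimated at 0.06 ± 0.08 (adjusted p = 0.704) and Rplp2 at 0.08 ± 0.06 (adjusted p = 0.472). Rpl11 and Rpl5, which bind 5S rRNA and, when free of the ribosome, the p53 regulator Mdm2, were 451 ± 43.8 and 731 ± 39.8 FPKM in OEA8_Ctrl and 485 ± 4.18 and 775 ± 43.5 in OEA8_69 (adjusted p = 0.309 and 0.421). Rpsa, also known as a laminin receptor, was estimated at 0.14 ± 0.06 in OEA8_69 (adjusted p = 0.202) and the X-linked Rps4x at 0.16 ± 0.05 (adjusted p = 0.0835). For Rps3, which sits at the mRNA entry channel, the estimate was 0.10 ± 0.05 (adjusted p = 0.299). Rps27a, translated as a fusion with ubiquitin, had 0.07 ± 0.08 (adjusted p = 0.606), and Rpl22 0.09 ± 0.06 (adjusted p = 0.372). In the fit without replicate 3 of OEA8_Ctrl the estimates of Rpsa (0.21, adjusted p = 0.00746), Rpl11 (0.19, adjusted p = 0.0111), Rps3 (0.16, adjusted p = 0.0151) and Rps4x (0.19, adjusted p = 0.0178) passed as well. Those of Rplp1, Rplp2, Rpl5, Rps27a and Rpl22 lay between 0.12 and 0.14 and did not pass, with adjusted p from 0.143 to 0.206.

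Ribosomal protein genes whose names fall outside the rule were measured as well. Of 10 such rows 8 could be tested, and 1 was called, Rps27rt, higher in OEA8_69 than in OEA8_Ctrl (background 4.55%). It was 77.2, 70.5 and 91.5 FPKM in OEA8_Ctrl, 114, 125 and 99.5 in OEA8_67 and 111, 176 and 173 in OEA8_69 (0.92 ± 0.16, adjusted p = 0.00283), while Rps27, which shares 100% of its coding words, was not called. The medians of the 8 were 0.02 in OEA8_67 and 0.13 in OEA8_69 against OEA8_Ctrl, and 0.14 between the mutants. Rps3a1 was higher in OEA8_69 than in OEA8_Ctrl by 0.14 (adjusted p = 0.159) and Fau, which fuses a ubiquitin-like protein to a small subunit protein, by 0.13 (adjusted p = 0.4004). Both passed without replicate 3 of OEA8_Ctrl, Rps3a1 at 0.19 (adjusted p = 0.0326) and Fau at 0.24 (adjusted p = 0.0188), and Rps27rt was at 1.02 (adjusted p = 0.00342). The tissue-restricted paralogs Rpl3l and Rpl10l were at 0.0822 and 0.200 FPKM. The medians of the tested rows outside the rule were thus close to those within it, while Rps27rt lay above the range of the members. The sum of Rps27rt and Rps27 was at 0.02 in OEA8_69 against OEA8_Ctrl (limma adjusted p = 0.936). Without replicate 3 of OEA8_Ctrl this sum was at 0.10 (adjusted p = 0.459), so the rise of Rps27rt was not seen in it.

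The 20 other mRNAs known to begin with a terminal oligopyrimidine tract, mostly translation factors, had medians of 0.03 in OEA8_67 and 0.11 in OEA8_69 against OEA8_Ctrl, and 0.08 between the mutants. In OEA8_69 2 rose, where 4.55% of all tested genes did, and all 20 means were higher, against 57.7%. In the other comparisons limma called 0, with 4 higher at an unadjusted p under 0.05 in each. Eef2, elongation factor 2, was 1463, 1400.3 and 1374 FPKM in OEA8_Ctrl, 1511, 1524 and 1465 in OEA8_67 and 1639, 1593 and 1652 in OEA8_69 (0.21 ± 0.05, adjusted p = 0.0206). In contrast to most ribosomal protein genes, its level in replicate 3 of OEA8_Ctrl was the lowest of the control. Eif3h rose by 0.14 (adjusted p = 0.0476). The count was 7 without replicate 3 of OEA8_Ctrl (background 7.92%) and 0 or 1 with any other library left out, and without that replicate 2 were called in OEA8_67 (background 3.5%) and 3 between the mutants (background 4.92%).

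Genes for the making of ribosomes, which transcribe and process ribosomal RNA, gave another pattern. Of 47 such genes 7 rose in OEA8_67 against OEA8_Ctrl and 0 fell, where 3.21% and 4.66% of all tested genes did, with a median of 0.08, whereas in OEA8_69 limma called 0 (3 lower at an unadjusted p under 0.05) and the median was -0.00. Polr1a, the large subunit of RNA polymerase I, was 13.9, 13.97 and 13.3 FPKM in OEA8_Ctrl, 16.5, 17.0 and 16.5 in OEA8_67 and 14.1, 13.9 and 14.1 in OEA8_69. OEA8_67 was above both other groups (0.26, adjusted p = 0.00293), and replicate 3 of OEA8_Ctrl did not stand apart. Rrp12 rose by 0.29 (adjusted p = 0.00697) and Utp20 by 0.27 (adjusted p = 0.0198). Between the mutants 3 were lower in OEA8_69 (background 1.27%), namely Polr1a (-0.23, adjusted p = 0.0139), Ddx21 (-0.25, adjusted p = 0.0368) and Heatr1 (-0.29, adjusted p = 0.0397). The count of 7 dropped to 3 when replicate 1 of OEA8_Ctrl was left out and to 2 for replicate 2 or 3 of OEA8_67, though Polr1a and Rrp12 were called in each of the 9 fits. That of 3 was 8 without replicate 3 of OEA8_Ctrl (background 3.71%) and 0 or 1 without any other library except replicate 2 of OEA8_Ctrl.

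For the 78 mitochondrial ribosomal protein genes, which serve the ribosome of another compartment, the medians were -0.02, 0.01 and 0.03 in the comparisons of OEA8_67 with OEA8_Ctrl, OEA8_69 with OEA8_Ctrl and OEA8_69 with OEA8_67. In the first comparison limma called 0, with 5 higher and 10 lower at an unadjusted p under 0.05. In the others 2 and 1 rose, against backgrounds of 4.55% and 1.89%, and 0 fell, the 2 being Mrps35 (0.24, adjusted p = 0.0297) and Mrpl34 (0.17, adjusted p = 0.0439), called in 5 and 1 of the 9 fits with a library left out. In these fits the counts were 0 to 7 and 0 to 3. Their summed level was 2442, 2487 and 2787 FPKM in OEA8_Ctrl and 2547 to 2657 in OEA8_69. For 50 short subunits of oxidative phosphorylation the medians were -0.07, 0.01 and 0.08, and the summed level of 8309.5 FPKM in replicate 3 of OEA8_Ctrl was the highest of the 9 libraries. Called were 1 gene lower in OEA8_67, 1 higher in OEA8_69 (Ndufa4, 0.27, adjusted p = 0.00467) and 2 higher between the mutants (backgrounds 4.66%, 4.55% and 1.89%), with 0 or 1, 1 to 10 and 0 to 6 when a library was left out. So in these lists of short nuclear genes, as in the ribosomal proteins, replicate 3 of OEA8_Ctrl was the highest control library, but their medians in OEA8_69 against OEA8_Ctrl lay below that of all tested genes. Without this library 7 mitochondrial ribosomal protein genes and 10 of the oxidative phosphorylation genes were called higher in OEA8_69, where 7.92% of all tested genes were.

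Of 40 translation initiation and elongation factors, 2 rose in OEA8_67 (Eif3a, 0.21, adjusted p = 0.0120, and Eif4g1, 0.22, adjusted p = 0.0134), 2 in OEA8_69 (Eef2 and Eif3h, above) and 1 was lower between the mutants, where the backgrounds were 3.21%, 4.55% and 1.27%. Leaving out single libraries gave 1 to 4, 0 to 5 and 0 to 4. Of 22 regulators of growth and ribosomal protein synthesis, such as Mtor and Myc, limma called 0 in any comparison, with 3, 3 and 7 at an unadjusted p under 0.05. Without replicate 3 of OEA8_Ctrl up to 3 were called higher (backgrounds 3.5% to 7.92%) and up to 2 lower. The mean level of Mtor, chosen as an example once values were known, was 7.19 ± 0.185, 7.29 ± 0.369 and 7.07 ± 0.505 FPKM in OEA8_Ctrl, OEA8_67 and OEA8_69 (SD, n = 3), and the groups overlapped. Among 20 targets of p53, 4 fell in OEA8_69 against OEA8_Ctrl (background 5.24%) and 1 rose (background 4.55%; Fas, 0.22, adjusted p = 0.00904). Mdm2 fell by 0.24 on the log2 scale (adjusted p = 0.00195) and Cdkn1a, the cell cycle inhibitor p21, fell by 0.25 (adjusted p = 0.00747). Both held with any library left out. In OEA8_67 limma called 0 of the 20 (1 at an unadjusted p under 0.05), and between the mutants 2 were lower and 1 higher (backgrounds 1.27% and 1.89%), or 0 to 3 and 0 to 2 with a library left out.

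Over the 9 libraries the members varied together, with a median correlation of 0.799 between pairs. The genes outside the set whose pattern was most like the mean of the members, by Pearson's r over the 9 libraries among 8661 genes averaging at least 5 FPKM, included 3110040N11Rik (0.976), Slc25a4 (0.972), Timm17b (0.960), Fau (0.958) and Rps6-ps4 (0.956). Of these, Fau is a ribosomal protein gene and Rps6-ps4 a copy of one, and the naming rule left both out. A value of at least 0.9 was reached by 43 of the 76 members, each of which contributes to that mean, and by 0.670% of the candidates. The members least like the mean were Rpl34 (0.495) and Rpl36. These libraries share 3 groups and the scaling to FPKM, and the correlations describe only these 9.

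All values are relative to the other RNA of a library. A lower amount of RNA in a cell cannot be told apart from fewer cells, and a change of all genes alike would not be seen. The FPKM of a library summed to between 469909 and 501342, highest in replicate 3 of OEA8_Ctrl, and r across genes was 0.995 to 0.997 for pairs of libraries in a group. The 11 fibroblast markers all reached 1 FPKM and had a median of 215 FPKM, while 4 of 12 hematopoietic stem and progenitor markers did, their median being 0.0428 FPKM, and so did 2 of 6 myeloid, 0 of 3 lymphoid and 1 of 5 endothelial markers. Ptprc, which encodes CD45, and Kit, both among the hematopoietic markers, averaged 0.00444 FPKM each. Summed, the endothelial markers were 12.1 to 13.2 FPKM in OEA8_Ctrl and at most 1.28 FPKM in either mutant, the hematopoietic markers 316 to 337 and 202 to 224 FPKM, and the fibroblast markers 5549 to 5599 FPKM in OEA8_Ctrl, 5205 to 5296 in OEA8_67 and 5538 to 5668 in OEA8_69. Only 1 endothelial and 4 hematopoietic markers passed the filter, so these 2 sums rest on few genes. Against OEA8_Ctrl, limma called the endothelial marker lower in each mutant. Of the 4 hematopoietic markers it called 2 lower and 1 higher in each mutant. Of the 11 fibroblast markers it called 5 lower in OEA8_67 and 3 lower in OEA8_69, and 0 higher in either. Of 2 tested myeloid markers it called 1 lower in each mutant. The backgrounds were 4.66% lower and 3.21% higher in OEA8_67, and 5.24% and 4.55% in OEA8_69. Between the mutants limma called 4 fibroblast markers higher and the endothelial marker lower in OEA8_69 (backgrounds 1.89% and 1.27%). The part of the markers in the results was not tested. S100a8 was between 3.75 and 6.24 FPKM in all 9 libraries, overlapping between the groups. These values do not show overexpression of the gene in any group, and they give no check of the construct.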

How the data were processed

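Total RNA of 9 mouse libraries, grouped and numbered by their labels, had been isolated with TRIzol and read on a BGISEQ-500 (DNBSEQ). Of the tools, HISAT2 2.0.4 and Bowtie2 2.2.5, with the build mm10, appear in the submitters' processing notes, and RSEM, of unstated version, in the study's methods. From the mapped reads the authors made the deposited FPKM values, 1 for each gene in each library. Group mean columns of the authors were not used. Read counts were not used here, whole reads could not be recovered from the values of short, low genes, and the depth of the libraries is unknown.

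Values were transformed to log2(FPKM + 1), so that fold changes of low genes are understated. Genes that averaged 0.5 FPKM or more, 12012 in all, entered a single model of limma 3.58.1 (R 4.3.3) with 3 groups and trended empirical Bayes moderation. P-values were two-sided and adjusted by the Benjamini-Hochberg method over all tested genes, with calls at an adjusted p under 0.05. The procedure was tested on simulated data. The members and the gene lists (other terminal oligopyrimidine mRNAs, ribosomal proteins outside the rule, ribosome biogenesis, mitochondrial ribosomal proteins, translation factors, growth regulators, oxidative phosphorylation, p53 targets, snoRNA hosts, of which the table held 0 under their symbols, and markers of 5 cell types) were chosen with earlier results of these data known. Named were called members, the 3 largest and 3 smallest changes per comparison, the 3 highest and 3 lowest levels, members with known roles, up to 3 called genes per list, and the 6 genes most like the member mean. Some genes that this rule names are not reported here. Copies and ribosomal protein genes outside the naming rule were named after their values were seen.

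Coding sequences and transcript lengths came from GENCODE, and positions and promoters from RefSeq (GRCm38.p6). Alternatives were pseudocounts of 0.1 and 0.5, no filter or one at 5 FPKM, other scalings, 2 groups only, moderation without trend or robust to outliers, a replicate block, and leaving out each library. Adding copies to their members (with and without replicate 3 of OEA8_Ctrl), the rows outside the naming rule without that replicate, and the counts of other lists without single libraries were chosen after seeing the data. Figures were drawn with matplotlib 3.10.9 in Python 3.11.15.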

Additional observations from a re-analysis of the deposited data

Results flagged for a closer look

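Rpl10 was the ribosomal protein gene whose difference from OEA8_Ctrl was not the same in the mutants by a test of the difference itself. It was -0.07 in OEA8_67 and 0.19 in OEA8_69 on the log2 scale, and 0.26 between the mutants (limma adjusted p = 0.0491). This call was lost with 8 of the 9 libraries left out in turn (adjusted p up to 0.172), and no ribosomal protein gene was called between the mutants without a filter, without the trend or with the replicate block. All 3 libraries of OEA8_69 were above all 3 of OEA8_67. In the table its coding sequence shares words with no other listed gene to 50%, but 7 annotated genes elsewhere in the genome share at least 50% of them.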

How the results depend on the processing

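The median log2 fold change of the ribosomal protein genes kept its sign in both comparisons of OEA8_69 under every alternative run. The counts of calls did not keep their size, and the share of all tested genes called the same way stands beside each in parentheses. Of genes higher in OEA8_69 than in OEA8_Ctrl there were 1 without a filter (2.57%), 2 with median-of-ratios scaling (3.7%), 17 with all libraries at the same FPKM sum (3.37%), 23 at the same sum over the other genes (4.84%), 1 with these 2 groups only (2.74%), and 1 to 52 with a library left out (2.44 to 7.92%), with medians of 0.08 to 0.19. Between the mutants there were 0 without a filter (0.691%), 0 without the trend (1.5%), 2 under quantile normalization (1.79%), with a median of 0.047 and 66 of 76 means higher, 2 under either same sum (1.14% and 1.47%), 25 with these 2 groups only (4.61%), and 0 to 28 with a library left out (0.683 to 4.92%), with medians of 0.11 to 0.17. In OEA8_67 there were 2 higher under quantile normalization (3.7%), and with a library left out 0 to 2 higher (1.07 to 3.9%) and 0 to 1 lower (2.79 to 4.78%), with medians of -0.06 to 0.05. The F test called 0 without a filter (6.8%), 6 with a filter at 5 FPKM (12.7%), 7 under quantile normalization (12.5%), 13 and 17 at the same sums (10.9% and 12.3%), 6 with robust moderation (12.3%), and 0 to 51 with a library left out (7.61 to 18%). The cause was not tested. Counts of genes lower stayed at 0 in both comparisons of OEA8_69.

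Adding the copies reversed Rpl34 in OEA8_67 (-0.062) and Rps27 in OEA8_69 (0.017). Rpl38 in OEA8_69 reversed with median-of-ratios scaling (-0.0077), quantile normalization (-0.077) and the same sum over all genes (-0.0078). With a library left out, the values in OEA8_69 were -0.078 to 0.12 for Rpl38, -0.087 to 0.073 for Rpl17 and -0.15 to 0.0085 for Rps27, and between the mutants -0.048 to 0.16 for Rpl34. Whether replicate numbers pair the samples is not known. Deviations from the group means correlated by -0.25 to 0.15 between same-numbered libraries of different groups and by -0.19 to 0.28 between others. With 3 libraries a group these values cannot decide it. With the number as a replicate block 0 genes were called higher between the mutants (1.35%), 4 in OEA8_69 (3.64%) and 0 in OEA8_67 (2.19%), and 0 lower in each. Depth is unknown, and 3 libraries a group limit small differences.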
